A study of Rattus norvegicus with 14 samples.

Results

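Protein quality control rests on chaperones, which help other proteins fold, and on the ubiquitin-proteasome system, which marks proteins with ubiquitin and degrades them. The genes described here were all those of the Tn5Prime table whose symbols name heat shock proteins, J-domain proteins, BAG co-chaperones, subunits of the CCT chaperonin, protein disulfide isomerases, proteasome subunits, ubiquitin-conjugating (E2) enzymes or ubiquitin-specific proteases. Of 2993 genes with a symbol, 71 met this rule, and they held 114 of the 4993 transcription start sites (TSSs) in the table. Each gene was represented by 1 TSS, the one with the highest mean level in sciatic nerve, which is called its main TSS. The rule on symbols also took in 4 genes whose products act elsewhere: Hspg2 (perlecan, a basement membrane proteoglycan), Hspbap1, Psmc3ip (a meiotic recombination factor) and Usp6nl (a Rab GTPase-activating protein). Hspb11 carries a small heat shock protein's symbol but encodes a ciliary transport protein.

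Tn5Prime sequences the 5′ ends of capped, polyadenylated transcripts, and levels are in RPM, the reads of a TSS scaled to the size of its library. The 14 rat libraries comprised 2 of sciatic nerve from adult animals of 6 to 9 months, a mixed tissue, 3 of control primary Schwann cells, 3 of primary Schwann cells treated with 250 µM CPT-cAMP for 3 days, 2 of the parental S16 line and 4 of S16 clones without SOX10 (ΔSOX10). Primary cells, control and treated, were kept in 5% FBS, and both kinds of S16 culture in 10% FBS. S16 is an immortalized rat Schwann cell line, so that both parental libraries are RNA of the same line, and each ΔSOX10 library is a separate clone with frameshift alleles in the first coding exon of Sox10. The spread of the parental libraries may thus be technical. The clones came from 2 gene-editing guide RNAs, were selected with puromycin and grew from single cells, while parental cells were unmodified. Effects of selection and cloning cannot be told apart from loss of SOX10 in these libraries. The table holds only TSSs found in nerve near both SOX10 and H3K4me3 ChIP-Seq peaks of that tissue, and a gene expressed from another TSS is not measured here.

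Library totals ranged from 29895599 to 79940274 reads, of which 28.7 to 37.0% fell in the listed TSSs. Sox10 lay at 77.5 and 90.7 RPM in the parental libraries and at 0 to 0.114 RPM in the ΔSOX10 clones. Of 12 Schwann cell markers, 11 had a listed TSS and 10 were tested in each comparison. With cAMP, 5 of them rose, Mbp included, and 3 fell. In ΔSOX10 cells, 9 fell, Sox10 itself included. The summed level of the 11 with a listed TSS was 4027 to 4280 RPM in parental cells and 55.2 to 66.8 RPM in the clones. Among the other cell types, the fibroblast gene Col1a1 fell with cAMP (-1.01 on the log2 scale) and the pericyte gene Pdgfrb rose (3.84). Col1a1 is not particular to fibroblasts here, as its mean was 2485 RPM in the parental S16 line. Pdgfra, the other fibroblast gene with a listed TSS, lay at 0 RPM in control cells and at most 0.338 RPM after cAMP. The perineurial gene Itgb4, the macrophage gene Csf1r and the adipocyte gene Cfd did not pass the test in either comparison, or were too low to be tested, and markers of endothelium and skeletal muscle had no listed TSS. The part of these shifts in the results below was not tested. In bulk samples, fewer cells of a type and less RNA per cell cannot be told apart.

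The families divide the work as follows. HSP70 proteins bind unfolded chains with the help of J-domain proteins and release them with the help of HSP110 and BAG proteins. HSP90 matures a set of client proteins, HSP60 and HSP10 form the folding chamber of mitochondria, CCT folds actin and tubulin in the cytosol, and small heat shock proteins hold unfolded proteins until they can be refolded. The 20S proteasome core cuts proteins, while the 19S cap recognizes ubiquitin and uses ATPases to unfold the substrate. Heat shock factors induce many cytosolic and mitochondrial chaperones through heat shock elements, and the unfolded protein response induces those of the endoplasmic reticulum (ER). Myelinating Schwann cells make large amounts of membrane protein through the ER.

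RefSeq promoters of 62 of the 71 genes were given for the GRCr8 build, each from 250 bases before to 50 bases after the annotated gene start; they were not compared with the TSSs of the table, whose positions are in rn5. The heat shock element was searched as GAANNTTC or TTCNNGAA on both strands. Promoters of members on which the results below turn are printed where they held a response element of chaperone genes or, for Psmd8, a SOX core. In the next 5, capitals mark heat shock elements.
Hspb6, chr1:94934122-94934421, plus strand: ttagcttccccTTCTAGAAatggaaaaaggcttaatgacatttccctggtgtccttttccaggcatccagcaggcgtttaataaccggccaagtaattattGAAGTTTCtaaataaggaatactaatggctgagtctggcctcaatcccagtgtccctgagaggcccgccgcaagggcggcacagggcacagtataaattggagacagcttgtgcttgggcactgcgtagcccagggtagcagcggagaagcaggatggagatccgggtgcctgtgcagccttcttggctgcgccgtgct
Hspe1, chr9:64084077-64084376, plus strand: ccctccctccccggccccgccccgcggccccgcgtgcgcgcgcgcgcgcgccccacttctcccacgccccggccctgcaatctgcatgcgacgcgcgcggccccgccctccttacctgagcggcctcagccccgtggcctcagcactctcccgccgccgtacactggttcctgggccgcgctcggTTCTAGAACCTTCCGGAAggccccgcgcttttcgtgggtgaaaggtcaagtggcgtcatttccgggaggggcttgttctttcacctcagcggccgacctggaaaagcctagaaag
Hspa2, chr6:100864192-100864491, plus strand: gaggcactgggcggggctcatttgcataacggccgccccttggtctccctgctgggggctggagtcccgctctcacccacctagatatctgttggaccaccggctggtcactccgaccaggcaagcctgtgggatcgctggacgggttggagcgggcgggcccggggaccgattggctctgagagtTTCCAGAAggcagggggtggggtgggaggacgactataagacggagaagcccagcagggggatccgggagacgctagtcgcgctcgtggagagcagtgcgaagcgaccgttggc
Bag3, chr1:192533210-192533509, plus strand: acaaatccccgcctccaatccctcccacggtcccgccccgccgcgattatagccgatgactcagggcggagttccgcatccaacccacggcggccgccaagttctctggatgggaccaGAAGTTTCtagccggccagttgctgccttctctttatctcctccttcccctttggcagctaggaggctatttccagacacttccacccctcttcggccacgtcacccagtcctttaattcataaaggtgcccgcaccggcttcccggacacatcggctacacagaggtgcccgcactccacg
Psmc3, chr3:97487393-97487692, plus strand: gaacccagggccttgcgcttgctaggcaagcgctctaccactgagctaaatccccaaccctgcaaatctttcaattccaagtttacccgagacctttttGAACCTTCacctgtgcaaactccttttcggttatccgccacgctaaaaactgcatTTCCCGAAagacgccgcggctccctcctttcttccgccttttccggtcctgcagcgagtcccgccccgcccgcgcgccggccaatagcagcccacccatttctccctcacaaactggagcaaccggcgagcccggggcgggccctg
The Hspb6 and Psmc3 promoters each held 2 heat shock elements that lie apart, and the Hspe1 promoter 3 that overlap in 1 run. In the promoter of Hsp90b1, the HSP90 of the ER, capitals mark 2 ER stress elements, searched as CCAAT followed after 9 bases by CCACG on both strands.
Hsp90b1, chr7:23012244-23012543, minus strand: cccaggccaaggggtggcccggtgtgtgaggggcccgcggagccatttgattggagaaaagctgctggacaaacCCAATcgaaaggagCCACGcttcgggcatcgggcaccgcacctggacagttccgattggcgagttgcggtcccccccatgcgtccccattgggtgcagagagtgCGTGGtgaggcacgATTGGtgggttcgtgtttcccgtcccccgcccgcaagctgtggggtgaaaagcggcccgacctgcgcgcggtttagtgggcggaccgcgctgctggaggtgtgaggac
In the promoter of Psmd8, a subunit of the 19S cap, capitals mark a SOX core, searched as ACAAAG or ACAATG on both strands.
Psmd8, chr1:93608640-93608939, minus strand: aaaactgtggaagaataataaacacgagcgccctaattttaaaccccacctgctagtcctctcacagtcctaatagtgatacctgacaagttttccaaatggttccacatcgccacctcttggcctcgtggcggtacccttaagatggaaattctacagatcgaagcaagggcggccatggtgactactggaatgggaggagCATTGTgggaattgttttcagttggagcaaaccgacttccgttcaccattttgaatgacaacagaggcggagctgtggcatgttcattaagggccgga
Heat shock elements were in 12 of the 62 member promoters (19.4%) and in 15.4% of all 27457 promoters. The ER stress element was in 1 member promoter (1.61%), that of Hsp90b1, and in 0.0765% of all. SOX cores were in 10 member promoters (16.1%) and in 28.6% of all. The complete cAMP response element, TGACGTCA, was in 2 (3.23%, against 1.91%), those of Dnajc30 and Psmb2, and the shorter core TGACG, which the complete element contains, in 30 (48.4%, against 22% of all). The antioxidant response core TGACNNNGC, which can share its first letters with that core, was in 13 (21%, against 12.2%). Of the 5 promoters of genes higher with cAMP, 3 held a heat shock element (Hspa2, Hspe1 and Psmc3), and of the 8 given for genes lower with cAMP, 1 did (Hspb6); none of these 13 held the complete cAMP response element. The 27457 promoters were not limited to genes of the table, and the shares among its other genes were not counted. Whether the differences belong to the members or to the choice of the table was thus not tested. A match describes letters only, and its absence says nothing of the factor. No promoter was given for Hspb2, Hsp90aa1 or Pdia3.

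In nerve, the highest levels belonged to the 20S proteasome core and to a small heat shock protein. Psmb6, which encodes a catalytic subunit of the core, was highest at 329 and 464 RPM in the 2 nerve libraries. Next came Hspb2, a small heat shock protein of muscle, at 401 and 314 RPM, Psmb1 at 209 and 293 RPM, Psmb3 at 182 and 258 RPM, and Psma2 at 198 and 225 RPM. The libraries of Psmb6 and Hspb2 overlap, as do those of Psmb1, Psmb3 and Psma2, so the order within each of these sets is not resolved beyond the spread. The median of the 71 members was 16.8 RPM in nerve, 45.5 in control, 40.7 in cAMP-treated, 39.5 in parental and 37.8 in ΔSOX10 cells, beside 12, 25.3, 24.5, 20.6 and 17.7 RPM for all genes at their main TSS. Nerve values chose the TSS, and the primary cells were sequenced on another instrument, so nerve and culture were not tested against each other. With that limit, 11 of the 71 members (15.5%) and 26.1% of all genes had a higher mean in nerve than in control cells.

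**Figure D1:**
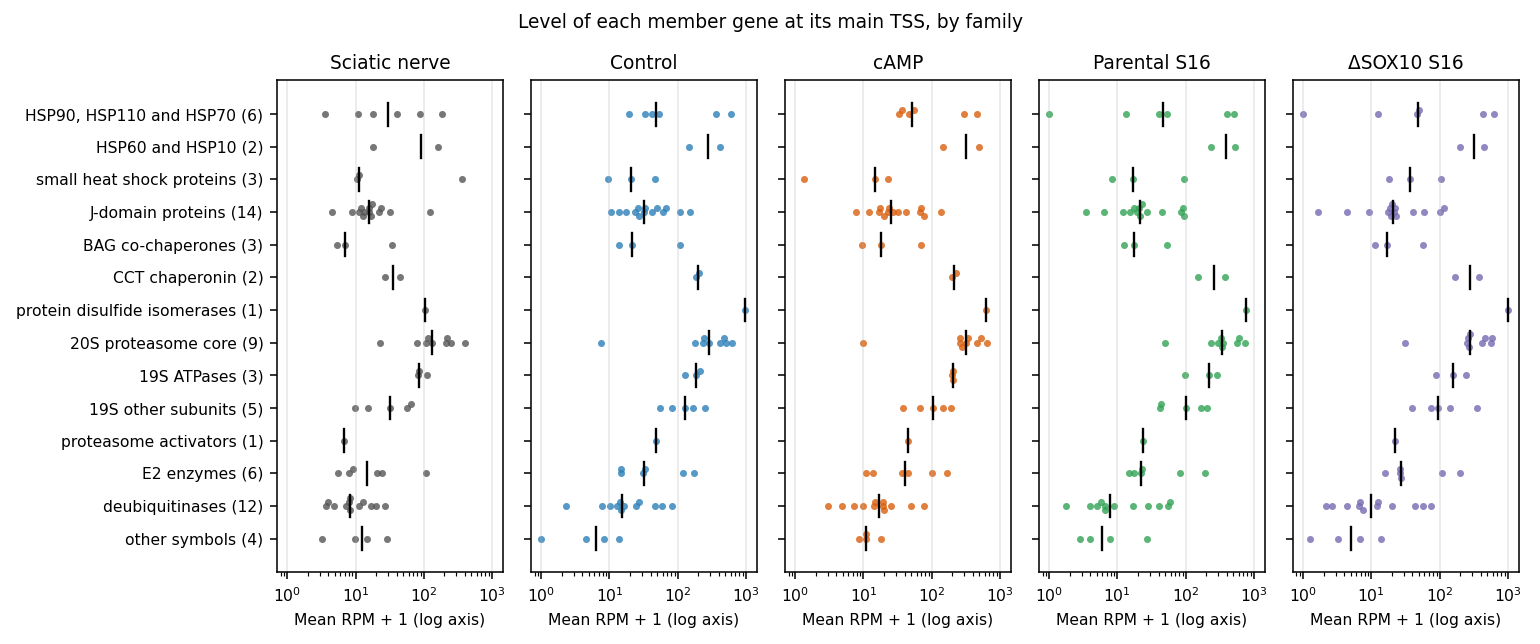
Level of each of the 71 members at its main TSS, as the mean RPM + 1 of a group on a log axis, by family (number of genes in brackets) and group. Points are genes and vertical lines family medians; the 20S core lies high in all 5 groups, and 1 small heat shock protein, Hspb2, stands at 357 RPM in nerve.

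Among these were Usp6nl, with 28.6 and 26.9 RPM in nerve and 1 read in the 3 control libraries together, Hspb2, at 7.91 times the mean of control cells, Hspa2, an HSP70 best known from testis (4.77 times), and Psmb9, the immunoproteasome counterpart of Psmb6 (3.41 times). In the other direction, Hspa4, an HSP110-type exchange factor, was 15.9 times higher in control cells, and the ER chaperones Pdia3 and Hsp90b1 were 9.21 and 9.19 times higher. Psme3, the nuclear proteasome activator, lay at 5.42 and 6.20 RPM in nerve and at 40.4 to 51.7 RPM in control cells. Psmd6, the highest of the non-ATPase 19S subunits in nerve, lay at 58.0 and 68.3 RPM there and at 146 to 177 RPM in control cells. Among the enzymes of ubiquitin, the E2 variant Ube2v1 was highest in nerve, at 104 and 109 RPM, and among deubiquitinases Usp16 led with 22.7 and 28.6 RPM.

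Most main TSSs sat inside the marks that defined the table. Of the 71, 69 overlapped an H3K4me3 peak and 54 a SOX10 peak (76.1%, beside 70.0% of all genes). The largest distance from a SOX10 peak was 1184 bp, at Hspb6, on chr1:90162783-90162920 (rn5). Main TSSs had a median width of 91 bp, beside 77 bp over all genes, and that of Hspa2 spanned 4 bp (chr6:108843800-108843803).

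CPT-cAMP is used to move cultured Schwann cells toward differentiation, and the comparison with control cells asked which TSSs respond. All 71 members passed the filter of more than 1 RPM in at least 2 of the 6 libraries. With cAMP, 5 members rose and 11 fell (limma on log2(RPM + 1), Benjamini-Hochberg adjusted p under 0.05 over 4119 TSSs), while 13.5% of all 2832 genes tested rose and 13.9% fell. The members' shares, 7.04% higher and 15.5% lower, thus lay under the background for genes that rose and near it for genes that fell. The median log2 fold change of the members was -0.10 beside -0.03 for all genes, and 63.4% of members and 52.4% of genes were negative. By role, 8 of 31 chaperones, co-chaperones and folding enzymes fell and 2 rose, 2 of 18 proteasome genes fell and 2 rose, and 1 of 18 ubiquitin enzymes fell. Roles follow symbols, so that Hspb11 counts among the chaperones and Psmd5 among the proteasome genes. The study already named Bag5, Dnajb2, Dnajb11, Hsp90aa1, Hspb2, Pdia3 and Psmd8 among genes lowered with cAMP in these libraries. Their fall here is thus no separate evidence.

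**Figure D2:**
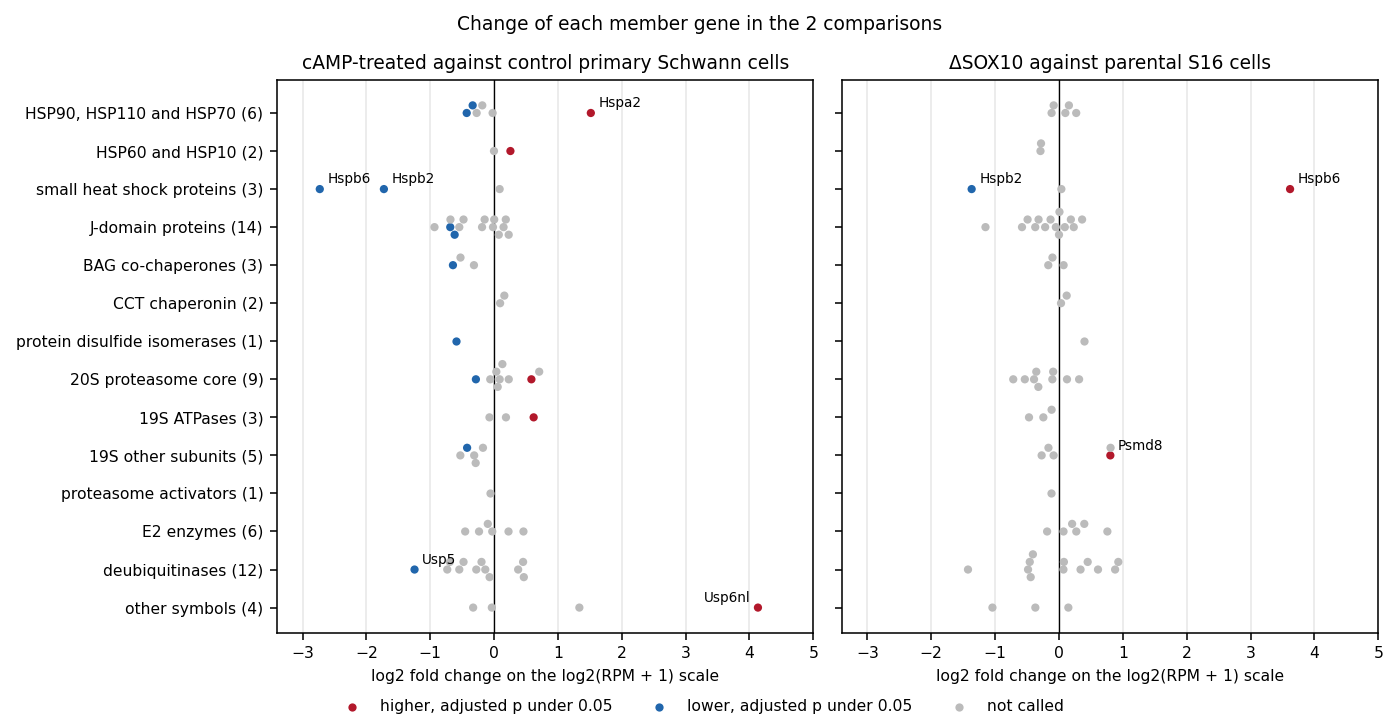
Log2 fold change of each member at its main TSS on the log2(RPM + 1) scale, by family, for cAMP against control (71 genes) and ΔSOX10 against parental S16 cells (69 genes). Red and blue points passed the test and grey points did not; Hspb6 lies at -2.73 in the first comparison and at 3.62 in the second, and Hspb2 is negative in both.

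The small heat shock proteins fell furthest. Hspb6 (HSP20) lay at 7.74, 3.62 and 13.9 RPM in control cells and at 0.0625, 0.945 and 0 RPM after cAMP. The groups did not overlap, and 1 treated library held most of the remaining reads. The log2 fold change was -2.73 (SE 0.59, limma adjusted p = 0.00135), and with edgeR's quasi-likelihood test on the recovered reads the adjusted p was 0.0526. Hspb2 lay at 47.4, 49.4 and 38.7 RPM in control and at 17.2, 7.58 and 16.2 RPM in treated cells, all treated values below all controls. Its mean fell 3.31-fold, by 1.73 on the log2 scale (SE 0.30, limma adjusted p = 0.000129). Hspb11 did not pass the test (0.09, SE 0.31). Cryab (αB-crystallin), a small heat shock protein outside the symbol rule whose main TSS lies 903 bp from that of Hspb2 on the other strand, went from 2265 ± 36.5 (SD, n = 3) to 103 ± 10.3 RPM (n = 3), a limma log2 fold change of -4.45.

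Pdia3, Dnajb11 and Hsp90b1, which work in the ER, fell. No list of ER members was fixed, and Hspa13, an HSP70 of the ER (-0.27, SE 0.25), and Dnajb12, a J-domain protein of its membrane (-0.54, SE 0.24), did not pass the test. Pdia3 (ERp57), which forms disulfide bonds in glycoproteins, had the highest level of all members in control cells, at 917, 946 and 992 RPM, and lay at 617, 578 and 691 RPM after cAMP. This was a fall of 0.60 on the log2 scale (SE 0.08, limma adjusted p = 2.37e-06), with no overlap between the groups. Dnajb11, a J-domain partner of the ER HSP70, lay at 93.1, 118 and 111 RPM in control and at 62.7, 65.9 and 69.6 RPM in treated cells, and fell by 0.69 (SE 0.15, limma adjusted p = 0.00171). Hsp90b1 (GRP94), whose promoter is printed above, lay at 359, 346 and 398 RPM in control and at 319, 299.6 and 257 RPM in treated cells, and fell by 0.34 (SE 0.10, limma adjusted p = 0.0167). Its groups are apart but close, the fold between means was 1.26, and the call was lost without cAMP replicate 3 (limma adjusted p = 0.0989) or control replicate 3 (limma adjusted p = 0.108). Of 23 other genes listed for ER folding and the unfolded protein response, 11 had a listed TSS. Of these 11, 9 fell and 0 rose, with a median log2 fold change of -0.79, while 13.9% of all genes tested fell. All 9 were already named by the study among genes lowered with cAMP in these libraries, so their fall is no separate evidence. They included Serpinh1, a collagen chaperone (1068 ± 49.1 to 433 ± 78.9 RPM, SD, n = 3 each), Calr, a lectin chaperone (343 ± 13.4 to 233 ± 12.2 RPM), and Atf4, a transcription factor of the stress response (141 ± 21.3 to 68.1 ± 12.6 RPM). Col1a1, itself a secreted protein, fell in the same libraries, as given above.

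In the cytosol, an HSP90 fell and an HSP70 rose. Hsp90aa1, the inducible HSP90, lay at 613, 606 and 598 RPM in control and at 534, 419 and 407 RPM after cAMP, and fell by 0.43 (SE 0.09, limma adjusted p = 0.00141). Hspa2 lay at 13.9, 21.7 and 19.1 RPM in control and at 59.1, 54.4 and 46.5 RPM after cAMP. All treated values exceeded all controls, and the mean rose 2.93-fold (log2 fold change 1.52, SE 0.24, limma adjusted p = 4.92e-05), to a level below that of nerve (89.5 and 84.3 RPM). The HSP110 genes Hspa4 and Hsph1 did not pass the test. Bag5, which releases clients from HSP70, lay at 133, 88.6 and 102 RPM in control and at 80.6, 64.2 and 59.7 RPM in treated cells, and fell by 0.64 (SE 0.17, limma adjusted p = 0.00781). Dnajb2, a J-domain protein with ubiquitin-binding motifs, lay at 57.1, 39.6 and 48.5 RPM and then at 30.3, 29.2 and 33.3 RPM, and fell by 0.62 (SE 0.21, limma adjusted p = 0.0381). These calls depended on single libraries: that of Bag5 was lost without control replicate 1 or without cAMP replicate 2 or 3, and that of Dnajb2 without any of these 3, cAMP replicate 1 or control replicate 3. The main TSS of Bag5 overlaps that of Apopt1 on the opposite strand, and Apopt1 did not pass the test (-0.13).

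In mitochondria, the 2 partners of the folding chamber share a divergent promoter region, with main TSSs 391 bp apart. Hspe1 (HSP10) lay at 403, 382 and 467 RPM in control and at 507, 499.7 and 482 RPM after cAMP, a rise of 0.26 (SE 0.09, limma adjusted p = 0.0367) that was lost without any 1 of the 3 treated libraries or without control replicate 1 or 2, and with edgeR's test (adjusted p = 0.0723). Hspd1 (HSP60) lay at 133 to 156 RPM in control and at 132 to 157 RPM in treated cells. Of the chaperonin that folds actin and tubulin, Cct7 (197 to 213 RPM in control, 207 to 247 RPM in treated cells) and Cct8 did not pass the test. Hspe1 and Hspd1 have many processed copies in mammalian genomes, and how reads that match several places were counted is not given in the sources used here.

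The proteasome's shares, 2 of 18 genes higher and 2 lower, were no larger than those of all genes given above. In the 20S core, Psma1, an outer-ring subunit, lay at 173, 150.3 and 204 RPM in control and at 279, 253 and 255 RPM after cAMP, and rose by 0.58 on the log2 scale (SE 0.12, limma adjusted p = 0.000651). Psma2, of the same ring, lay at 394, 417 and 426 RPM and then at 312, 328 and 378 RPM, and fell by 0.28 (SE 0.09, limma adjusted p = 0.0274). The fall of Psma2 was small, and its call was lost without cAMP replicate 1 or 2 or control replicate 2 or 3, and with edgeR's test (adjusted p = 0.0552). Psmb6 (-0.06, SE 0.08), Psmb1 (0.04, SE 0.08) and Psmb3 (0.06, SE 0.07) did not pass the test. In the 19S cap, Psmc3, an ATPase of the base, lay at 142, 111 and 127 RPM in control and at 217, 179.8 and 189 RPM after cAMP, and rose by 0.62 (SE 0.13, limma adjusted p = 0.00079). Psmd8, a lid subunit, lay at 253, 264 and 244 RPM and then at 197, 169 and 203 RPM, and fell by 0.42 (SE 0.11, limma adjusted p = 0.00555). The other 4 genes with a Psmd symbol, Psmd5 among them, were negative (-0.53 to -0.17) and did not pass. Psmd6 and Psme3 were at -0.17 (SE 0.12) and -0.06 (SE 0.19).

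Among the ubiquitin enzymes, Usp5, which takes apart free ubiquitin chains, was the one that passed. It lay at 36.3, 52.0 and 48.3 RPM in control and at 17.8, 21.0 and 16.6 RPM after cAMP, with no overlap, and fell 2.46-fold (log2 fold change -1.25, SE 0.24, limma adjusted p = 0.000502). None of the 6 E2 enzymes and none of the other 11 deubiquitinases passed, Ube2v1 (-0.03, SE 0.12) and Usp16 (-0.28, SE 0.23) included. For Usp21, the main TSS chosen by nerve was the minor one in culture. Its other TSS made up 91.9% of the mean RPM of the pair in control cells, and did not pass either (-0.56, SE 0.41). The largest differences that missed the threshold were those of Hspg2 (1.34, SE 0.52, limma adjusted p = 0.0709), Dnajc13, an endosomal J-domain protein (-0.93, SE 0.42, limma adjusted p = 0.118), and Usp4 (-0.73, SE 0.35, limma adjusted p = 0.146). Usp4 passed without control replicate 2 (limma adjusted p = 0.0437), as did Hspg2 (limma adjusted p = 0.0324). Of 38 other genes listed for ubiquitin, its E1 and E3 enzymes and adaptors, 21 had a listed TSS, and 3 of these rose and 6 fell. Those that rose included the ubiquitin fusion gene Rps27a and the muscle E3 component Fbxo32 (14.3 ± 4.40 to 59.5 ± 9.65 RPM, SD, n = 3 each). Of 22 heat shock factors and co-chaperones, 11 had a listed TSS, and 1 rose and 4 fell, Cryab among the latter. Beside both lists, 13.5% of all genes tested rose and 13.9% fell.

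Usp6nl, which is no ubiquitin protease, rose from almost nothing. It had 1 read in the 3 control libraries together and 13.3, 18.9 and 18.3 RPM in the treated ones, beside 28.6 and 26.9 RPM in nerve. The log2 difference of 4.13 (SE 0.51, limma adjusted p = 1.72e-06) depends on the pseudocount of 1 RPM, and no fold is given.

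**Figure D3:**
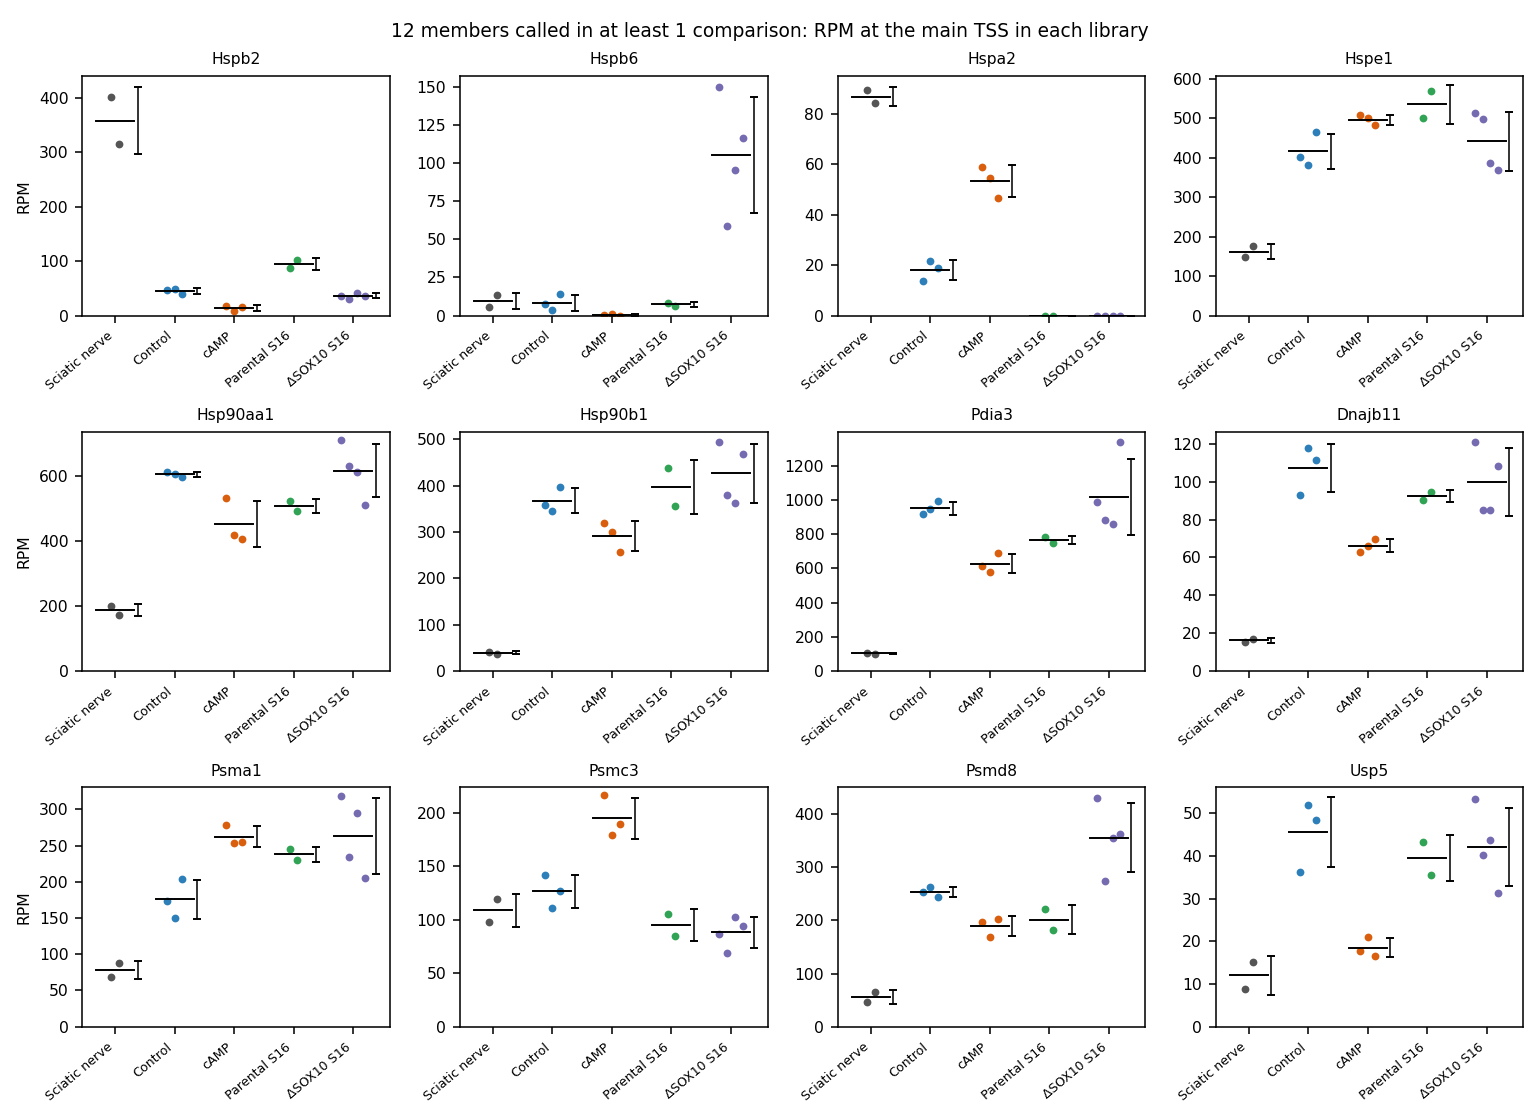
RPM at the main TSS in each library for 12 members that passed the test in at least 1 comparison, each panel with its own axis from 0. Points are libraries, horizontal lines group means and bars the SD; Hspa2 lies at 46.5 to 59.1 RPM after cAMP, above all controls, and Hspb6 at 58.8 to 149.7 RPM in the ΔSOX10 clones, above both parental libraries.

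The comparison of ΔSOX10 clones with parental S16 cells asked which TSSs differ without SOX10, the transcription factor that drives Schwann cell genes. In S16 cells, 69 members passed the filter; Hspa2, at 0 RPM in all 6 libraries, and Usp6nl, at 0 to 3.26 RPM, did not. A count of 0 allows a level of up to 3 reads, which is 0.0678 to 0.0855 RPM in these libraries, for counting error only. In ΔSOX10 cells, 2 members rose and 1 fell, while 1.99% of all 2763 genes tested rose and 5.5% fell (limma, adjusted over 3875 TSSs). The members' shares were 2.90% higher and 1.45% lower, and 3 genes are too few to set against the background. On the RPM scale the median of all TSSs was -0.18, and after scaling by trimmed means (TMM) or median ratios it was -0.05, so differences here are best read relative to that median. The median over members was -0.08 in RPM and 0.06 with either scaling.

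Hspb6 rose in every clone. It lay at 8.36 and 6.17 RPM in parental cells and at 149.7, 58.8, 95.9 and 117 RPM in the clones. The lowest clone was far above both parental libraries, and the mean rose 14.5-fold (log2 fold change 3.62, SE 0.36, limma adjusted p = 0.000276), 3.80 above the median of all TSSs. Hspb2 lay at 86.3 and 102 RPM in parental cells and at 35.5, 30.3, 41.4 and 36.7 RPM in the clones. It fell 2.62-fold, by 1.37 on the log2 scale (SE 0.22, limma adjusted p = 0.00433), with no overlap. Relative to the median of all TSSs this was -1.19, and without parental replicate 2 the call was lost (limma adjusted p = 0.112, with the lone parental sample assumed to vary like the clones). Cryab, near Hspb2, did not pass the test at its main TSS (0.17, SE 0.28). The study names Cryab among genes with a TSS lowered on loss of SOX10, and other TSSs of Cryab are not described here. Hspb6 and Hspb2 both fell with cAMP, and in ΔSOX10 cells Hspb6 rose and Hspb2 fell.

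Psmd8 was the other gene that rose, at the edge of the threshold. It lay at 222 and 182 RPM in parental cells and at 431, 274, 355 and 363 RPM in the clones, with a log2 fold change of 0.80 (SE 0.21, limma adjusted p = 0.04995), 0.98 above the median of all TSSs. All clones exceeded both parental libraries. The call was lost with edgeR's test (adjusted p = 0.0667), and without either parental library or any clone but 1-2. Psmd5, an assembly chaperone of the 19S base, was of like size (0.81, SE 0.25) but did not pass (limma adjusted p = 0.099), with 46.8 and 36.7 RPM in parental cells and 92.0, 54.4, 71.0 and 80.9 RPM in the clones.

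Of the 18 proteasome genes, 14 were negative in RPM, but 9 were negative after TMM or median-ratio scaling. Psmb6 (-0.32, SE 0.18), Psmb3 (-0.36, SE 0.16), Psmb1 (-0.09, SE 0.20), Psma2 (-0.10, SE 0.17), Psmc3 (-0.12, SE 0.22), Psmd6 (-0.27, SE 0.18) and Psme3 (-0.13, SE 0.37) did not pass, and the signs of Psmb1, Psma2, Psmc3 and Psme3 turned positive with either scaling. The chaperones of the ER that fell with cAMP did not pass here. Pdia3 lay at 783 and 749 RPM in parental cells and at 986, 882, 859 and 1337 RPM in the clones (0.38, SE 0.21, limma adjusted p = 0.367), a difference with no overlap between groups that missed the threshold. Dnajb11 (0.09, SE 0.21) and Hsp90b1 (0.10, SE 0.19) lay closer to 0. In the list for ER folding and the unfolded protein response, 2 of 11 genes rose and 0 fell. Both encode stress transcription factors: Atf4 went from 119.5 ± 7.78 (SD, n = 2) to 294 ± 46.1 RPM (n = 4), and Ddit3 (CHOP) from 46.8 ± 3.07 to 139 ± 53.0 RPM. Both fell with cAMP in primary cells. In the list of heat shock factors and co-chaperones, 0 of 11 passed, and in that of ubiquitin, E1, E3 and adaptors 1 of 21, Fbxo36, fell. Beside these lists, 1.99% of all genes tested rose and 5.5% fell.

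Neither Hsp90aa1 (0.27, SE 0.17), Hspe1 (-0.29, SE 0.19), Cct7 (0.03, SE 0.16), Bag5 (0.07, SE 0.23), Dnajb2 (0.19, SE 0.27), Dnajc8 (0.36, SE 0.19), Dnajc13 (-0.49, SE 0.43), Psma1 (0.13, SE 0.21) nor Hspg2 (0.15, SE 0.79) passed in S16 cells, nor did Usp5 (0.08, SE 0.26), Usp4 (-0.44, SE 0.31), Usp16 (0.34, SE 0.21) and Ube2v1 (0.07, SE 0.18). On the RPM scale, the largest differences that missed the threshold were those of Usp22, a histone deubiquitinase (6.60 and 4.72 RPM to 0.994, 1.27, 0.792 and 3.48 RPM, log2 fold change -1.42, SE 0.48, limma adjusted p = 0.125), Dnajc7 (-1.15, SE 0.41, limma adjusted p = 0.15) and Psmc3ip (-1.04, SE 0.40, limma adjusted p = 0.184). In these 3 the groups did not overlap, which also held for other members that did not pass, such as Psmb3, Psmc5 and Usp34. How often this held over all genes was not counted. Relative to the median of all TSSs, the deubiquitinases Usp3 (1.11) and Usp34 (1.06) differed by more than Dnajc7 (-0.97) and Psmc3ip (-0.86), and neither passed. Usp22 passed without clone 2-2 (limma adjusted p = 0.046). With cAMP, Dnajc7 (0.23, SE 0.38), Usp22 (0.45, SE 0.31), Psmc3ip (-0.33, SE 0.39) and Dnajc8 (-0.19, SE 0.12) did not pass.

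Set side by side, the 2 comparisons shared no libraries. Of the 11 members that fell with cAMP, 2 rose (Hspb6 and Psmd8) and 1 fell (Hspb2) in ΔSOX10 cells, and 8 were not called. Of the 5 that rose with cAMP, 3 were not called and 2 were not tested. Across the 69 members tested in both, log2 fold changes had a Pearson correlation of -0.42 and a Spearman correlation of -0.23, beside -0.33 and -0.22 over 2737 genes. These are descriptions across genes, which are not independent replicates.

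A second layer lay in the start sites. Besides their main TSS, 20 members had 43 further TSSs. Hspa2 had 10 of them, all downstream within chr6:108844795-108846028 (rn5) at 2.10 to 5.63 RPM in nerve, and they reached at most 1.10 RPM in a library of primary cells and 0 in S16 cells. Of the 24 further TSSs tested with cAMP, 1 fell and 0 rose, while over all TSSs 12.9% rose and 11% fell. Of 25 tested in S16 cells, 2 rose and 0 fell, while 1.65% of all TSSs rose and 6.55% fell. The 3 calls belonged to 2 genes, Bag3 and Psmc3, which were named after these values were seen.

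Bag3, a co-chaperone that links HSP70 to autophagy, has its main TSS at chr1:206989069-206989075 and a second TSS 181 bp downstream, at chr1:206989256-206989259. At the main TSS, control cells had 22.8, 19.1 and 19.1 RPM and treated cells 13.7, 24.9 and 12.2 RPM, and the groups overlapped. At the second TSS, control cells had 10.9, 8.67 and 10.9 RPM and treated cells 0, 1.16 and 1.31 RPM. The second TSS fell (log2 fold change -2.70, SE 0.53, limma adjusted p = 0.000548), and edgeR's adjusted p was 0.0598. The study already named Bag3 among genes with a TSS lowered with cAMP in these libraries. In S16 cells, the second TSS lay at 7.10 and 4.28 RPM in parental cells and at 29.9, 18.4, 16.6 and 18 RPM in the clones, and rose (1.70, SE 0.36, limma adjusted p = 0.0212), while the main TSS did not pass (-0.10, SE 0.43). Without parental replicate 2 the rise did not pass (limma adjusted p = 0.216). The second TSS made up 33.3% of the mean RPM of the pair in control cells, 4.63% after cAMP, 25.3% in parental and 56.8% in ΔSOX10 cells. Its directions were those of Hspb6 in both comparisons, and also those of Psmd8, Atf4 and Ddit3. The difference between the 2 TSSs was not itself tested.

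Psmc3 had 2 further TSSs upstream of the main one. The larger, at chr3:86585722-86585748, lay at 32.5 and 65.5 RPM in parental cells and at 137, 65.9, 95.8 and 99.0 RPM in the clones, and did not pass the test (1.04, SE 0.35, limma adjusted p = 0.118). The minor one, at chr3:86585774-86585780 and 169 bp from the main TSS, lay at 7.66 and 5.39 RPM in parental cells and at 17.6, 14.5, 16.3 and 19.1 RPM in the clones. It rose by 1.26 on the log2 scale (SE 0.31, limma adjusted p = 0.0426), and the call was lost with edgeR's test and when any 1 of the 6 libraries was left out. With cAMP, where the main TSS of Psmc3 rose, neither the minor one (0.95, SE 0.49) nor the larger upstream one (0.07, SE 0.17) passed.

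**Figure D4:**
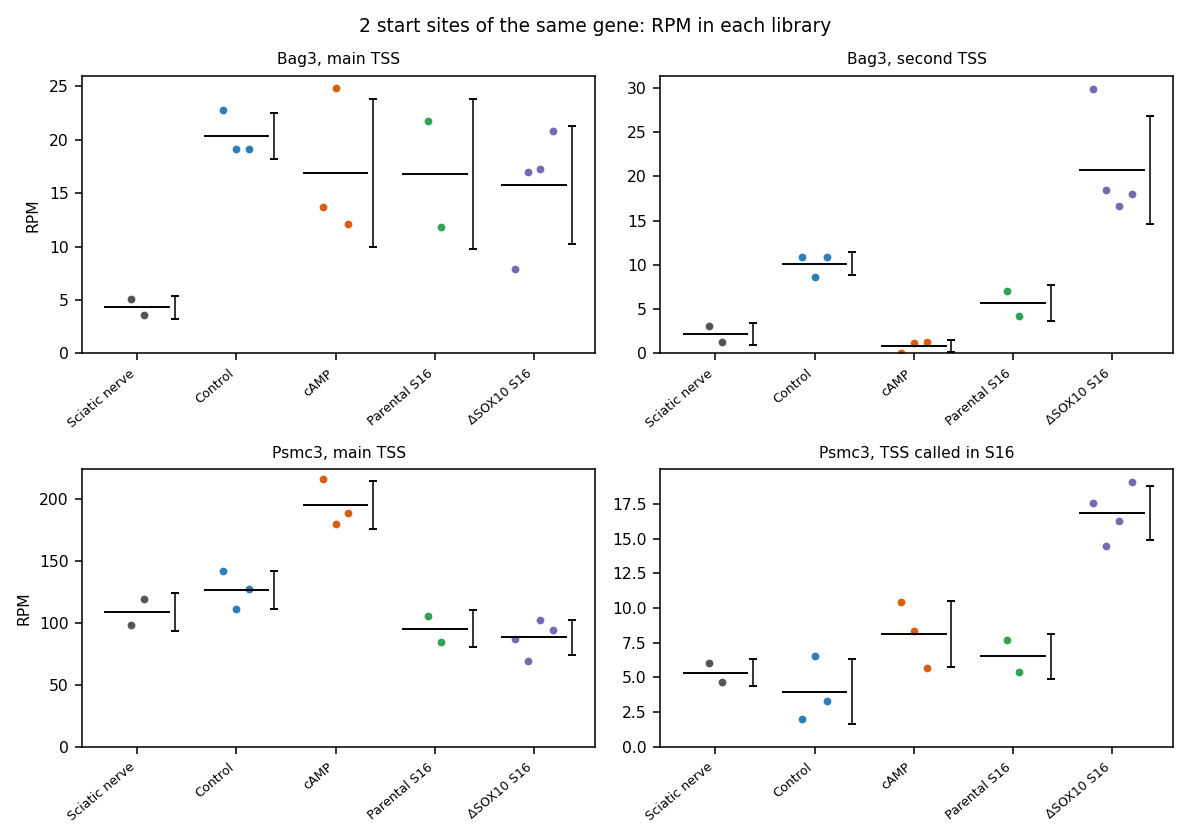
RPM in each library at 2 TSSs of Bag3 and of Psmc3, each panel with its own axis from 0. Points are libraries, horizontal lines group means and bars the SD; the second TSS of Bag3 lies at 0 to 1.31 RPM after cAMP and at 16.6 to 29.9 RPM in the ΔSOX10 clones, while the groups overlap at its main TSS.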

How the data were processed

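Per the labels and the methods of the study, Tn5Prime libraries were made from 5 ng of total RNA. The authors trimmed reads with Cutadapt 1.14, mapped them to rn5 with STAR 2.5.2a, handled them with SAMtools 1.9, clustered read starts with Make_CTSS and Paraclu, and counted reads per TSS with featureCounts (Subread 1.6.1). Nerve and S16 libraries ran on HiSeq and primary cells on NovaSeq instruments. The deposited values are RPM, and the authors chose the listed TSSs by their distance to ChIP-Seq peaks. The table also holds log2 fold changes and FDR values of the authors' edgeR 3.24.3 comparisons, which were not used. RPM steps gave whole reads (100% of low values within 0.1 read), and 8.59 to 9.35% of values in both parental libraries and clones 1-1 and 1-2 were rounded, so that their reads are approximate. Counting error at totals of 29895599 to 79940274 reads is only a lower bound on the spread between libraries. No step that removes amplification copies of a read is described.

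Each comparison used its own 6 libraries: limma 3.58.1 (lmFit, eBayes with trend) in R 4.3.3 on log2(RPM + 1), for TSSs above 1 RPM in at least 2 libraries, with Benjamini-Hochberg adjustment over all TSSs tested. Fold changes are on the log2(RPM + 1) scale, which understates those of low TSSs; folds between means are of RPM. No 2 replicates agreed within sampling noise. The fit was tested on simulated data. Alternatives were edgeR 4.0.16 and DESeq2 1.42.0 on the recovered reads, other pseudocounts, filters and scalings, TSSs summed per gene, all 14 libraries, a replicate block and leaving out each library.

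Members given in full were, per comparison and direction, the 8 called with the largest change, those called in both, the highest of each family and the 5 highest overall in nerve, and the 3 largest not called. The members and gene lists were chosen with earlier results of these data known. The RefSeq sequences are of GRCr8; no coordinates were moved between builds.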

Additional observations from a re-analysis of the deposited data

Results flagged for a closer look

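At the second TSS of Bag3, 1 of the 4 ΔSOX10 clones stood apart: clone 1-1 had 29.9 RPM, while the others had 16.6 to 18.4 RPM. Its gap to the nearest clone was 0.863 of the whole range, above Dixon's 95% critical value for 4 samples. Chance alone marks about 5% of such groups, and 33 TSSs were examined. Without clone 1-1 the rise at this TSS still passed the test (log2 fold change 1.51, limma adjusted p = 0.0384).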

How the results depend on the processing

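With all 14 libraries in 1 model, 6 members fell with cAMP in place of 11, and 2 fell in ΔSOX10 cells in place of 1. The cause was not tested. That model lost the calls of Bag5 (adjusted p = 0.114), Dnajb2 (0.122), Hsp90b1 (0.157), Psma2 (0.185) and Psmd8 (0.108), which fell with cAMP, and of Hspe1 (0.278), which rose. In ΔSOX10 cells, 1 member rose, in place of 2, with edgeR, with no filter on low values and with a pseudocount of 0.1, and 3 rose with DESeq2 and with TMM or median-ratio scaling. Leaving out 1 library at a time gave 4 to 5 members higher and 8 to 11 lower with cAMP, and 1 to 2 higher and 0 to 2 lower in ΔSOX10 cells. Where a parental library was left out, the remaining one was assumed to vary like the clones. The same-numbered primary cell libraries did not deviate together (correlations 0.029, 0.0075 and 0.038), and a replicate block kept the same 5 higher and 11 lower members.

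Signs that turned belonged to differences that missed the threshold. In ΔSOX10 cells these were Hspg2 with DESeq2 (-0.41), edgeR (-0.41) and a pseudocount of 5 (-0.055), and with TMM and median-ratio scaling Psma2 (0.046 and 0.045), Psmb1 (0.059 and 0.058), Psmc3 (0.034 and 0.032, and 0.37 with TSSs summed per gene) and Psme3 (0.016 and 0.014). Over libraries left out, the log2 fold changes with cAMP ran from -0.0053 to 0.096 for Psmb1, -0.16 to 0.017 for Psme3 and -0.10 to 0.077 for Ube2v1. In ΔSOX10 cells they ran from -0.0029 to 0.20 for Bag5, -0.028 to 0.078 for Cct7, -0.0069 to 0.16 for Dnajb11, -0.050 to 0.25 for Hsp90b1, -1.23 to 1.53 for Hspg2, -0.18 to 0.015 for Psmb1, -0.27 to 0.043 for Psmc3, -0.39 to 0.13 for Psme3, -0.018 to 0.16 for Ube2v1 and -0.059 to 0.21 for Usp5. Apart from libraries left out, the settings ended a call on a named TSS 13 times with cAMP and 5 times in ΔSOX10 cells, with direction kept. The choice of main TSS by either nerve library alone was tried after the data were seen, as were all settings on the second TSSs and on Hsp90b1. Depth limits low TSSs most, such as Hspb6 after cAMP (0 to 53 reads).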
